A study of Mus musculus with 8 samples.

Results

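The Schlafen genes were examined in mouse blood monocytes, the circulating precursors of macrophages, on 8 Affymetrix arrays. The 7 genes Slfn1, Slfn2, Slfn3, Slfn4, Slfn5, Slfn8 and Slfn9 were followed, of 18193 genes on the arrays. A probe set, the group of short probes that reads 1 transcript, was assigned to a member when it was annotated to that symbol alone. There were 11 such probe sets, and each gene was read from the brightest of its own, averaged across the 8 arrays. Male C57BL/6 mice had received intravenous green fluorescent latex beads of 1 µm, and monocytes were sorted from blood 4 days later. The classical subset carries much Ly-6C on its surface and is called Gr1hi here, and the nonclassical subset carries little and is called Gr1lo. Each was separated into bead-carrying and bead-free cells, which gives 4 groups of 2 arrays. All groups thus came from bead-injected mice of this strain. The sources conflict on clodronate liposomes, which deplete monocytes: the series text gives them to the mice 3 days before beads, while the treatment protocol restricts them to the labelling of Gr1hi cells. If the latter holds, subset and clodronate treatment cannot be told apart. The arrays are described as biological replicates with no number of mice, and p-values measure the spread between arrays.

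Schlafen proteins share an N-terminal core domain that in several members binds or cuts transfer RNA, and the longer members add a helicase-like domain. Type I interferon and Toll-like receptor ligands induce many of the genes in myeloid cells. Slfn1 and Slfn2 encode short proteins, Slfn3 and Slfn4 proteins of intermediate length, and Slfn5, Slfn8 and Slfn9 long ones. Slfn2 is known for keeping T cells and monocytes quiescent, and Slfn4 for its regulation during macrophage differentiation and activation.

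In the RefSeq annotation of GRCm38.p6 the members lie beside one another on chromosome 11, in the order Slfn5, Slfn9, Slfn8, Slfn10-ps, Slfn2, Slfn1, Slfn4, Slfn3 and Slfn14. Of the members, Slfn9 and Slfn8 are on the minus strand. Sequences of the 250 bases before the annotated start were available for 7 of 7 members and are shown for 5, to set the genes that differ most between the subsets (Slfn4, Slfn1, Slfn5) beside neighbours that differ least (Slfn2, Slfn8). Capitals mark matches on either strand to CAGGAAGT, a sequence bound by Ets family factors, or to the core of the interferon stimulated response element, which is GAAA, any 2 bases and GAAA again. The Ets sequence was chosen after the windows had been read, and the other motifs with earlier results known.
Slfn4, chr11:83174936-83175185, plus strand: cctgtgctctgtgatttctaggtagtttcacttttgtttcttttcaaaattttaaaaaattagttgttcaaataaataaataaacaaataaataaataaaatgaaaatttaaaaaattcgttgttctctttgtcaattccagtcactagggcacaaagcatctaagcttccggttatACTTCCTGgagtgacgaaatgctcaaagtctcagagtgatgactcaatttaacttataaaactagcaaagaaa
Slfn1, chr11:83116570-83116819, plus strand: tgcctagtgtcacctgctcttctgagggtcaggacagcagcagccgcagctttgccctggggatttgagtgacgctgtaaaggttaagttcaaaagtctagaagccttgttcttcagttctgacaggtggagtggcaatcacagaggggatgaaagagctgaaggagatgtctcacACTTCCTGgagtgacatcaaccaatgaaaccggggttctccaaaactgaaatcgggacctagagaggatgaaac
Slfn2, chr11:83064862-83065111, plus strand: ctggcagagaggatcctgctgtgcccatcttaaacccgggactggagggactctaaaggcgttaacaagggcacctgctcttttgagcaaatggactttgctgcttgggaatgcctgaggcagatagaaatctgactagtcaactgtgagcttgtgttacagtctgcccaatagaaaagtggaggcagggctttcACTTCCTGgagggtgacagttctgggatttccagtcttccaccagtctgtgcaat
Slfn5, chr11:82951852-82952101, plus strand: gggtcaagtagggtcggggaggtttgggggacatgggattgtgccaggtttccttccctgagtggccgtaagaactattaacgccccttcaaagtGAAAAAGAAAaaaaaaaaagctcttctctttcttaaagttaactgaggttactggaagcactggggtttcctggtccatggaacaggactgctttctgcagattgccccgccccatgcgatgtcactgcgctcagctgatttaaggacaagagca
Slfn8, chr11:83020811-83021060, minus strand: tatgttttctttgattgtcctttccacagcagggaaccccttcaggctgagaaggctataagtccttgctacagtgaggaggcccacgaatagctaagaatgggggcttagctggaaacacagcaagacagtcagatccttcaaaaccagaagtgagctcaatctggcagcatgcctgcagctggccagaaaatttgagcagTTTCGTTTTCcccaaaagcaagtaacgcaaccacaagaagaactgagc

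The matches divided the cluster by position. CAGGAAGT was found before Slfn2, Slfn1, Slfn4 and Slfn3 and not in the windows of Slfn5, Slfn8 or Slfn9, and 2.69% of 32851 RefSeq windows of this length hold it. The response element core was found before Slfn5, Slfn8 and Slfn9 and not in the windows of the other members, against 2.98% of all windows. Slfn4 and Slfn1 share the run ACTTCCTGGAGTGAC, which no other window of the 32851 holds (2 in all), and it starts 73 bases before the Slfn4 start and 74 before that of Slfn1. Slfn4 alone among the members matched TGANTCA, the AP-1 sequence, on the plus strand 34 bases before its start (6.75% of windows). TTCNNNGAA, the gamma activated sequence (7.02% of windows), and GACCACCCA, the Gli sequence (0.225%), matched no member. Both strands were searched for every motif, and the motifs listed do not overlap one another in these windows. Only exact matches were counted, so sequences close to a motif may lie in windows without a match. A match describes letters only, and the arrays did not measure binding.

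Expression values are on a log2 scale, where 1 unit is a doubling. Values were called above background when they exceeded 6.98, the 95th percentile of olfactory, vomeronasal, taste receptor and keratin-associated genes. Array medians lay between 6.12 and 6.19, and 8615 to 8865 genes per array were above background. All 7 defining monocyte markers were above background. In cells without beads, 13 of 14 nonclassical markers were higher in Gr1lo and 10 of 12 classical markers lower, at a limma adjusted p under 0.05. Of all genes, 23.6% passed this threshold in either direction and 13.6% were lower. The poly-A control RNAs added at labelling read 7.75 and 8.11 in bead-free Gr1hi cells, 9.45 and 9.86 in bead-carrying ones, 9.27 and 8.68 in Gr1lo cells without beads, and 10.44 and 10.45 with beads. These controls thus differed between subsets as well as between bead states. Their part in the subset and bead differences below was not tested.

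Of the members, 6 were above background. Slfn4 ranged widely: it read 12.04 and 12.05 in Gr1hi cells without beads, 12.18 and 11.57 in Gr1hi cells with beads, 9.52 and 8.69 in Gr1lo cells without beads, and 7.87 and 7.37 in Gr1lo cells with beads. The Gr1hi groups overlapped each other, and both lay above every Gr1lo array. The Gr1lo arrays with beads lay below those without. Slfn2 stayed between 11.73 and 12.18 on all 8 arrays, with the highest readings in Gr1hi cells without beads.

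Slfn1 read 11.06 and 10.88 in Gr1hi cells without beads, 10.13 and 10.15 in those with beads, 9.42 and 8.70 in Gr1lo cells without beads, and 8.85 and 8.43 with beads. Its Gr1lo groups overlapped, whereas both Gr1hi groups stood apart from each other and above them. Slfn5 followed the same order, with 9.30 and 9.11, 8.55 and 8.44, 8.00 and 7.40, and 7.22 and 6.99 in those 4 groups, none of which overlapped. Slfn8 read 9.72 and 9.30 in Gr1hi cells without beads, 9.30 and 8.72 in those with beads, 9.19 and 8.86 in Gr1lo cells without beads, and 9.25 and 8.84 with beads, and its Gr1hi and Gr1lo arrays overlapped. Slfn9 lay near background, between 6.85 and 7.74, with 6 of 8 arrays above it. Slfn3 stayed between 2.79 and 3.79, far below background on every array.

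**Figure D1:**
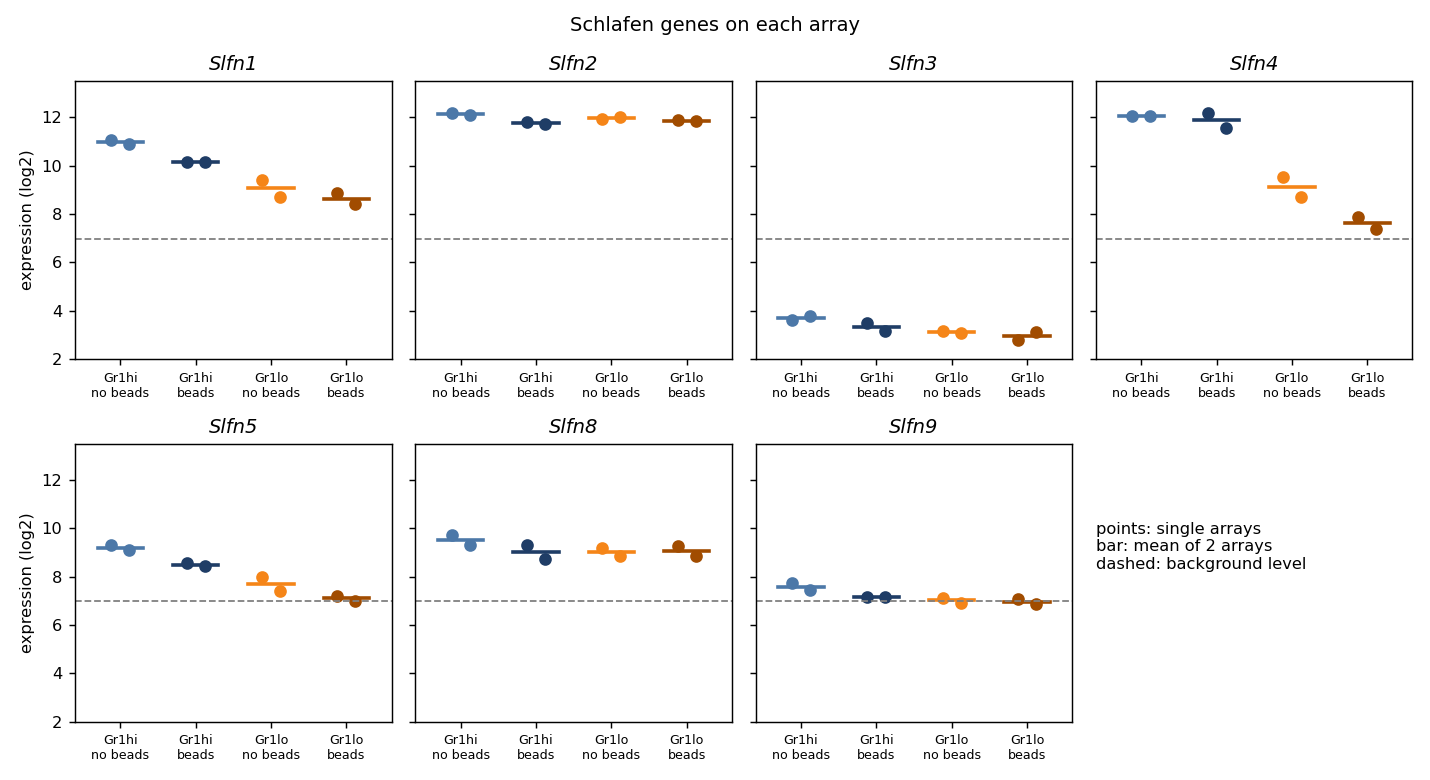
Each panel plots the log2 expression of a Schlafen gene on the 8 arrays (points) by group, with the mean of 2 arrays as a bar and the background level of 6.98 dashed. Slfn4 lies between 11.57 and 12.18 in Gr1hi cells and between 7.37 and 9.52 in Gr1lo cells, while Slfn2 stays between 11.73 and 12.18.

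Which Schlafen genes differ between nonclassical and classical monocytes was asked first in cells without beads. Slfn4 fell from 12.04 ± 0.01 (SD, n = 2) in Gr1hi to 9.11 ± 0.58 in Gr1lo cells, a log2 difference of -2.94 ± 0.29 (SE) or 7.65-fold, with a Benjamini-Hochberg adjusted p of 0.000215 in limma. Slfn1 fell by 1.91 ± 0.22 (adjusted p = 0.000474) and Slfn5 by 1.51 ± 0.18 (adjusted p = 0.000591). Slfn9, near background, fell by 0.56 ± 0.13 (adjusted p = 0.0140), and Slfn3, below background, by 0.58 ± 0.15 (adjusted p = 0.0229). Of 7 members 5 were thus called lower, at an adjusted p under 0.05, and none higher, while 13.6% of all genes were called lower and 23.6% in either direction. The members' median difference was -0.58 and that of all genes -0.07. Without Gr1hi array 1 or without Gr1lo array 2 of these groups, 3 members were called: Slfn4, Slfn1 and Slfn5. The call of Slfn3 was also lost without Gr1hi array 2 (-0.48).

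The remaining members were not called. Slfn2 differed by -0.16 (95% interval -0.35 to 0.04, adjusted p = 0.230 in limma). For Slfn8 the difference was -0.48 with an interval of -1.0 to 0.04 (adjusted p = 0.175). The interval of Slfn4 ran from -3.59 to -2.28.

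In cells with beads the gap in Slfn4 was -4.26 ± 0.29 or 19.1-fold (limma adjusted p = 2.51e-05), from 11.88 ± 0.43 in Gr1hi to 7.62 ± 0.36 in Gr1lo cells. It ranked as number 7 of 18193 genes from the most negative difference. Slfn1 fell by 1.5 ± 0.22 (adjusted p = 0.00125) and Slfn5 by 1.39 ± 0.18 (adjusted p = 0.000679). These 3 of 7 members were the ones called, all lower, against 14.6% of all genes lower and 26.5% in either direction. Slfn2 differed by 0.09 (95% interval -0.11 to 0.28), Slfn8 by 0.04 (-0.49 to 0.56), Slfn9 by -0.21 (-0.50 to 0.08) and Slfn3 by -0.35 (-0.69 to -0.01), with adjusted p from 0.124 to 0.934. The members' median was -0.35 and that of all genes -0.03.

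Averaged over bead state, Slfn4 differed by -3.60 ± 0.20 log2 units (12.1-fold, limma adjusted p = 3.83e-06), Slfn1 by -1.71 ± 0.15 (adjusted p = 5.12e-05) and Slfn5 by -1.45 ± 0.13 (adjusted p = 4.35e-05). Slfn9 (-0.38 ± 0.09, adjusted p = 0.0101) and Slfn3 (-0.46 ± 0.10, adjusted p = 0.00808) were called as well, which made 5 of 7 members lower and 0 higher, against 20.9% of all genes called lower and 35.6% in either direction. Slfn2 (-0.03, 95% interval -0.17 to 0.10) and Slfn8 (-0.22, -0.59 to 0.15) had adjusted p of 0.705 and 0.332. For 4 members, Slfn1, Slfn4, Slfn5 and Slfn9, all Gr1lo arrays lay below all Gr1hi arrays, as they did for 19.7% of all genes. In sorted bulk RNA, fewer cells of a type that expresses a gene and less RNA per cell cannot be told apart.

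**Figure D2:**
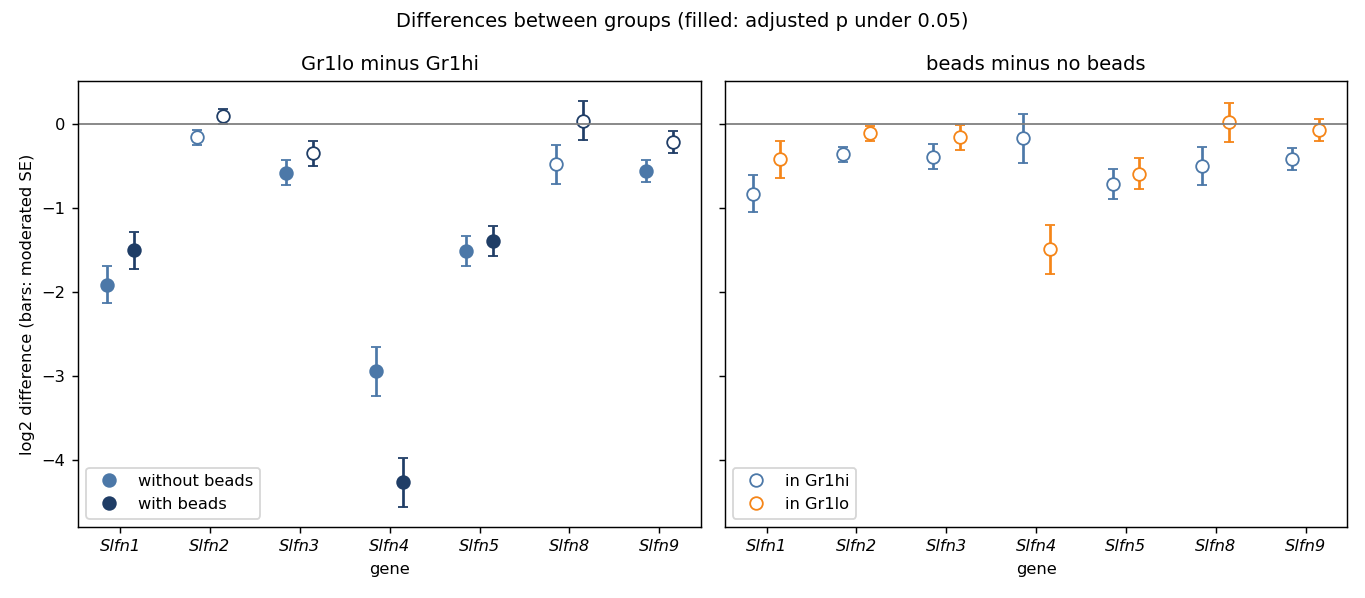
The plot shows log2 differences with their moderated standard errors for each Schlafen gene, Gr1lo minus Gr1hi on the left and beads minus no beads on the right, with filled points at an adjusted p under 0.05. Slfn4 stands lowest on the left at -2.94 and -4.26, and no point on the right is filled.

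Slfn4 was then set against each other member by taking the log2 difference between them on every array, which shows unequal change and not which gene moved. The Gr1lo minus Gr1hi change of Slfn4 differed from that of Slfn1 by -1.89, of Slfn5 by -2.15, of Slfn3 by -3.13, of Slfn9 by -3.21, of Slfn8 by -3.37 and of Slfn2 by -3.56. In all 6 pairs every Gr1lo array lay below every Gr1hi array, and the two-sided exact permutation p was 0.0286, the smallest that 70 assignments allow (0.0286 adjusted over the 6 pairs). The permutation treats all arrays as independent, and no label says whether arrays of a subset share mice. Slfn4 minus any other gene of the 18192 gave the same separation for 99.7% of them, so it is not particular to the Schlafen members. Within bead states the gap to Slfn1, the nearest member, was -1.02 without and -2.76 with beads, and the gap to Slfn2 was -2.78 and -4.35. Background limits how low some of the other members can read. Slfn3 was below 6.98 on every array, and Slfn9 lay between 6.85 and 7.74. Slfn5 read 7.22 and 6.99 in Gr1lo cells with beads. The part of this limit in their gaps to Slfn4 was not tested. Members were chosen with earlier results of these arrays known, so these p-values are not independent evidence of the direction.

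**Figure D3:**
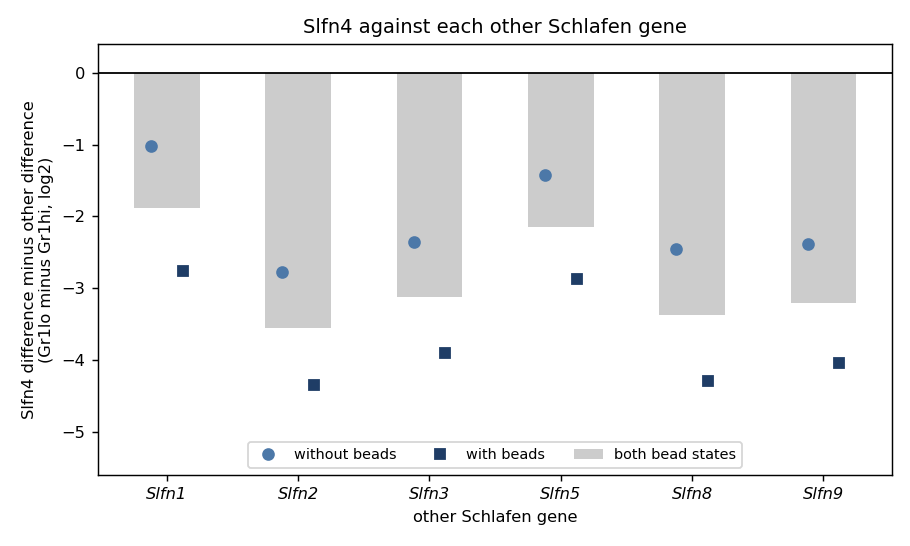
Bars give the Gr1lo minus Gr1hi log2 difference of Slfn4 minus that of each other Schlafen gene over all 8 arrays, and points give it without beads and with beads. All values are below 0, from -1.02 against Slfn1 without beads to -4.35 against Slfn2 with beads.

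Other probe sets bore on these readings. The probe set annotated to Slfn4 and Slfn3 together, which cannot separate the paralogs, read 9.10 and 9.20 in Gr1hi cells without beads, 9.13 and 8.47 in those with beads, 6.58 and 6.01 in Gr1lo cells without beads, and 5.82 and 5.64 with beads. Its 4 Gr1lo arrays were thus below background and its 4 Gr1hi arrays above, a mean difference of -2.96. Slfn5 had a probe set at 7.51 on average that differed between subsets by -0.55 ± 0.10 averaged over bead state (limma adjusted p = 0.00281), against -1.45 for the brightest. Its dimmest probe set, at 6.70, was below background and differed by -0.40 ± 0.16 (adjusted p = 0.0903). With beads neither of these was called (-0.36, adjusted p = 0.106, and -0.33, adjusted p = 0.362), so the Slfn5 call there rests on 1 of its 3 probe sets. The second probe sets of Slfn1 (4.08) and Slfn9 (5.40) were below background. Averaging all probe sets of a gene brought the difference without beads to -0.97 for Slfn1 and -0.90 for Slfn5, and both remained called. Paralogs of this family are similar in sequence, and cross-hybridisation was not tested.

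Do Schlafen genes differ between bead-carrying and bead-free cells of the same subset? In Gr1hi cells all 7 members read lower with beads, and 0 were called, with 0.247% of all genes called in either direction. Slfn1 went from 10.97 ± 0.13 (SD, n = 2) to 10.14 ± 0.01, a difference of -0.83 ± 0.22 (limma adjusted p = 0.260). Slfn5 differed by -0.71 ± 0.18 (adjusted p = 0.237), Slfn8 by -0.50 ± 0.23, Slfn9 by -0.42 ± 0.13, Slfn3 by -0.39 ± 0.15 and Slfn2 by -0.36 ± 0.09. Slfn4 differed least, by -0.17 ± 0.29 (95% interval -0.82 to 0.49), and without Gr1hi array 2 with beads by 0.14. At an unadjusted p under 0.05 there were 5 of 7 members, against 9.93% of all genes, and 54.5% of all genes had a negative difference. Slfn1 was called when the Gr1hi arrays were fitted alone (adjusted p = 0.0411), and Slfn2 with eBayes set to trend and robust estimation (adjusted p = 0.0405).

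Markers moved in the same Gr1hi comparison, where 0.247% of all genes were called in either direction. Of 14 tissue macrophage markers 3 rose with beads: Spic, a transcription factor of red pulp macrophages, by 1.47 ± 0.11 (limma adjusted p = 0.00836), the iron exporter Slc40a1 by 1.20 ± 0.14 and the lysosomal glycoprotein Gpnmb by 1.39 ± 0.17. Of 14 nonclassical monocyte markers 3 rose: Adgre4 by 0.90 ± 0.10 (limma adjusted p = 0.0211), Treml4 by 0.67 ± 0.09 and Eno3 by 0.86 ± 0.12. Their part in the Schlafen differences was not tested.

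In Gr1lo cells Slfn4 had the largest bead difference of the members, from 9.11 ± 0.58 without beads to 7.62 ± 0.36 with them, or -1.49 ± 0.29 (2.80-fold, 95% interval -2.14 to -0.83). Its unadjusted p was 0.000708 and its adjusted p 0.116 in limma, so it was not called. Without Gr1lo array 2 without beads the difference was -1.90 (adjusted p = 0.00979), and without array 1 of that group -1.07 (adjusted p = 0.338). Slfn5 differed by -0.59 ± 0.18, and by -0.89 (adjusted p = 0.0165) without the same array 2. The other Slfn5 probe set above background read 0.08 ± 0.14 here (adjusted p = 0.847). Slfn1 differed by -0.42 ± 0.22, Slfn3 by -0.16, Slfn2 by -0.11, Slfn9 by -0.07 and Slfn8 by 0.02. In all, 0 of 7 members were called, against 0.225% of all genes, and 2 had an unadjusted p under 0.05, against 13.2% of all genes.

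Classical monocyte markers moved with this difference, in a comparison where 0.225% of all genes were called in either direction. In Gr1lo cells 6 of 12 fell with beads, the list's median was -0.78 against 0.02 for all genes, and its mean level was 11.16 to 11.61 without beads and at most 10.05 with beads. F13a1, a coagulation factor chain, read 10.61 and 10.17 without beads and 7.46 and 7.24 with beads. Of 12 dendritic cell markers 3 fell and 0 rose, and the lectin Cd209a read 10.06 and 9.73 against 6.84 and 6.69. Of 10 natural killer cell markers 1 was called: Klrd1 read 7.55 and 7.80 without beads and 5.26 and 5.28 with beads. Of 14 tissue macrophage markers 4 rose with beads in Gr1lo cells, and the list differed between the Gr1lo arrays without beads, at a mean level of 6.74 on the lower array and 8.46 on the higher, and C1qa read 11.37 on array 1 and 8.16 on array 2. Their part in the Slfn4 difference was not tested.

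Averaged over subsets, the bead differences were -0.83 ± 0.20 for Slfn4 (limma adjusted p = 0.127), -0.65 ± 0.13 for Slfn5 (adjusted p = 0.0675) and -0.63 ± 0.15 for Slfn1 (adjusted p = 0.128). All 7 were negative, 0 were called against 0.764% of all genes, and 6 had an unadjusted p under 0.05 against 15.3%. Without Gr1lo array 2 without beads, Slfn4 (-1.03), Slfn5 (-0.80) and Slfn1 (-0.80) were called. Slfn5 was also called with its probe sets averaged (-0.46, adjusted p = 0.0490) and with trend and robust eBayes (adjusted p = 0.0378). The bead difference of Slfn4 in Gr1lo minus that in Gr1hi was -1.32 ± 0.41 (95% interval -2.25 to -0.39), with an unadjusted p of 0.0108 and an adjusted p of 0.558. For the other 6 members this quantity was positive, from 0.12 for Slfn5 to 0.52 for Slfn8. Here 0 of 7 members were called, against 0.0440% of all genes, and Slfn4 alone had an unadjusted p under 0.05, against 7.84%. The wider Slfn4 gap between subsets with beads than without is the same quantity, and so was not called either.

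Against each other member, the bead change of Slfn4 averaged over subsets differed by -0.17 (Slfn5) to -0.59 (Slfn2 and Slfn8). The two-sided exact permutation p lay between 0.222 and 0.667 (0.500 to 0.667 adjusted over 6 pairs), in a design whose smallest p is 0.0556. The sign turned with the subset: against Slfn1 it was 0.67 in Gr1hi and -1.07 in Gr1lo cells, and against Slfn8 it was 0.33 and -1.51.

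The genes whose array pattern came closest to Slfn4 were taken from 8787 genes above background. Likeness was the root mean square difference over the 8 arrays, each gene centred on its own mean. The 5 closest were Met, the hepatocyte growth factor receptor (0.33 log2 units), Gas7, a regulator of the actin skeleton (0.35), Lcn2, an iron-siderophore binding protein of neutrophil granules (0.38), Capg, an actin capping protein (0.38), and Sgms2, a sphingomyelin synthase (0.40). Met read 10.28 and 10.45 in Gr1hi cells without beads, 10.02 and 10.09 in those with beads, 7.61 and 7.51 in Gr1lo cells without beads, and 6.40 and 6.24 with beads. Capg read between 12.64 and 12.71 in Gr1hi cells, 11.18 and 9.29 in Gr1lo cells without beads, and 9.09 and 8.52 with beads. Among the members, Slfn1 ranked 92 (1.06 log2 units) and Slfn5 128 (1.15), Slfn9 1652, Slfn8 2567 and Slfn2 4114.

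**Figure D4:**
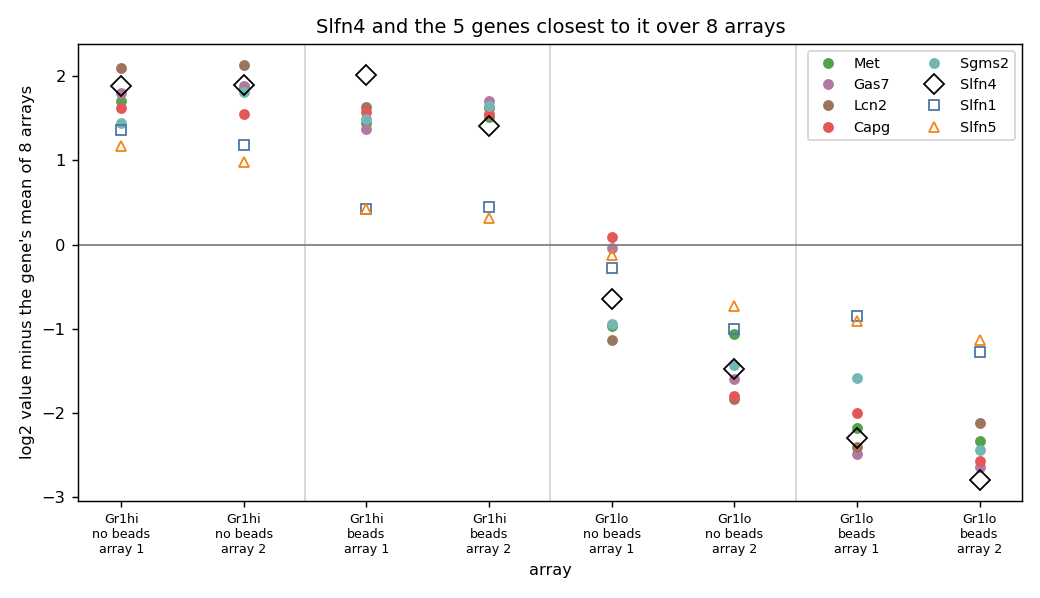
Points give the log2 value of each gene minus its own mean over the 8 arrays, for Slfn4 (diamonds), its 5 closest genes, Slfn1 and Slfn5. The closest genes lie within 0.33 to 0.40 log2 units of Slfn4 by root mean square, and Slfn1 and Slfn5 span a narrower range.

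Interferon stimulated genes, the group to which many Schlafen genes are assigned, were also lower in Gr1lo cells. Of 28 measured, 19 fell and 1 rose without beads (median -0.87, with 13.6% of all genes lower), and 13 fell and 1 rose with beads (median -0.50, with 14.6% of all genes lower). The oligoadenylate synthetase Oas1a differed by -1.18 ± 0.12 (limma adjusted p = 0.000215) without and -1.09 ± 0.12 with beads, and Bst2, which tethers budding virus, by -1.35 ± 0.17 and -1.24 ± 0.17. Slfn4's differences, -2.94 and -4.26, were larger, and Slfn2 and Slfn8 were not called. With beads in Gr1hi cells the list had 0 of 28 called and a median of -0.40, against -0.42 for the 7 Schlafen members and -0.02 for all genes. In Gr1lo cells the bead medians were -0.03 for the list and -0.16 for the members.

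Of 17 measured signalling genes upstream of interferon targets, 6 rose and 4 fell in Gr1lo cells without beads, and 7 rose and 2 fell with beads, where 23.6% and 26.5% of all genes were called in either direction. The list's median differences were 0.13 and 0.18, against -0.07 and -0.03 for all genes. The transcription factor Irf1 rose by 0.53 ± 0.09 (limma adjusted p = 0.00371) without and 1.10 ± 0.09 with beads, and the cytokine signalling inhibitor Socs3 by 1.29 ± 0.18 and 1.34 ± 0.18. Usp18, an interferon-induced inhibitor of the receptor, fell by 1.88 ± 0.32 without beads. Of 15 Toll-like receptor signalling genes, 1 rose and 3 fell without beads and 1 rose and 2 fell with beads, which is near the 23.6% and 26.5% of all genes and no result about the list. The kinase Ikbke fell by 0.86 ± 0.11 and 0.80 ± 0.11, and the RNA sensor Tlr7 rose by 0.94 ± 0.12 and 0.75 ± 0.12. Between bead-carrying and bead-free cells, 0 of these genes were called in either subset.

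Neutrophil markers were read beside Slfn4 because neutrophils also carry Gr1. Of 13 measured, 8 were above background, and Mmp9, Camp, Ngp, Cxcr2 and Mpo were below it on average. Between subsets, 11 of 13 were lower in Gr1lo cells without beads and 6 with beads, against 13.6% and 14.6% of all genes. In bead-carrying against bead-free cells, 2 of 13 fell in each subset, against 0.0989% of all genes in Gr1hi and 0.143% in Gr1lo. In Gr1hi these were Mpo and Mmp9, both below background averaged over all arrays but above it in Gr1hi cells without beads. Mpo read 7.14 and 7.38 without beads and 6.14 and 6.07 with beads. Mmp9 read 7.87 and 7.95 without beads and 7.05 and 6.96 with beads. In Gr1lo the 2 that fell were Cd177 and Mmp8, which is also in the classical monocyte list. The mean level of the 13 markers was 9.09 to 9.33 in Gr1hi cells without beads and 8.48 to 8.75 in those with beads. In Gr1lo cells it was 6.82 to 7.10 without beads and 6.71 to 6.81 with beads. S100a8, an alarmin that classical monocytes also express, fell by 5.57 ± 0.25 (limma adjusted p = 3.94e-06) without and 4.62 ± 0.25 with beads. Cxcr2, a neutrophil chemokine receptor, was below background. The part of these genes in the Slfn4 difference was not tested.

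The 3 other Schlafen loci with a probe set annotated to them alone read below background, and no probe set was annotated to Slfn14. The pseudogene Slfn10-ps lay between 3.04 and 4.22, the Slfn5 antisense transcript Slfn5os between 5.46 and 6.01, and the distant relative Slfnl1 between 5.83 and 6.04. Slfn10-ps differed by -0.87 between Gr1lo and Gr1hi cells at these levels.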

How the data were processed

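The authors deposited 1 table of log2 intensities for 45101 probe sets on 8 arrays, processed with RMA per the submitters' processing notes, and it was used unchanged. Per the labels' protocols, RNA of sorted cells was extracted with TRIzol and an RNeasy kit and amplified before labelling. Versions of the authors' tools and the chip definition were not given in the sources used here. RMA ordinarily includes quantile normalisation, which makes a shift shared by all genes invisible. Gene symbols came from the platform annotation, and 34945 probe sets carried 1 symbol. Means of 4 groups were fitted to 8 arrays with limma 3.58.1 in R 4.3.3 (lmFit, eBayes), and 7 contrasts were adjusted by Benjamini-Hochberg over 18193 genes. SE is the moderated standard error, from 4 residual and 4.48 prior degrees of freedom. Slfn4 was set against 6 members by exact permutation of arrays. The fit was tested on simulated data. Named genes were all members, the 5 genes closest to Slfn4, and up to 3 called genes per list and contrast by smallest p; C1qa, Cxcr2 and Gli1 were named from marker lists after their values were seen. Members and lists were chosen with earlier results of these data known. Alternatives covered averaging and testing of all probe sets, filter, fit, normalisation, replicate block and leaving out each array. The number of arrays limits precision. Promoter sequences are RefSeq's, build GRCm38.p6. Figures were drawn with matplotlib 3.10.9.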

Additional observations from a re-analysis of the deposited data

How the results depend on the processing

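The Gr1lo minus Gr1hi falls of Slfn4, Slfn1 and Slfn5 kept their direction and call under every alternative run, with Slfn4 between -3.35 and -2.52 without beads, -4.56 and -3.95 with beads, and -3.80 and -3.39 on average. The 6 pairwise gaps of Slfn4 between subsets also kept theirs. No alternative read a gene from a dimmer probe set alone, and with beads neither other Slfn5 probe set was called. Leaving out 1 array gave 3 to 5 members called between subsets without beads, 0 to 2 with beads against without in Gr1lo cells, and 0 to 3 for beads on average. Slfn4 then ranged from -0.47 to 0.14 for beads in Gr1hi, from -1.90 to -1.07 in Gr1lo, and from -1.03 to -0.62 on average. Uncalled differences changed sign on leaving out an array: Slfn8 between subsets with beads (-0.26 to 0.33), Slfn3 (-0.33 to 0.0050), Slfn8 (-0.18 to 0.22) and Slfn9 (-0.18 to 0.04) for beads in Gr1lo, and Slfn5 for the difference between bead effects (-0.17 to 0.42). The replicate numbers 1 and 2 recur in every group; deviations of same-numbered arrays correlated at 0.36 within Gr1hi and 0.27 within Gr1lo, and between -0.02 and 0.09 across subsets, and no label says that they pair. With the replicate block, Slfn4 for beads was called in Gr1lo (-1.49, adjusted p = 0.0288) and on average (-0.83, adjusted p = 0.0387), 1 member was called in Gr1lo and 2 on average (the other being Slfn5, adjusted p = 0.0265), and Slfn8 was called between subsets without beads (-0.48, adjusted p = 0.00714) and on average (-0.22, adjusted p = 0.0276). A replicate block within each subset was chosen after the data were seen. For beads it called Slfn4 at the same values (-1.49 and -0.83), with 1 member called in Gr1hi, 1 in Gr1lo and 3 on average. Slfn5 for beads on average was called (limma adjusted p = 0.0194). Between subsets this block gives the fitted difference at replicate 1, which is another quantity than the difference over both replicates. At replicate 1, Slfn8 between subsets read -0.03 with beads. It was called without beads (-0.55, limma adjusted p = 0.0120) and on average (-0.29, adjusted p = 0.0379). Slfn3 between subsets without beads was not called at replicate 1 (-0.67, limma adjusted p = 0.0518). For beads in Gr1hi, 1 member was called with the compared arrays alone and 1 with trend and robust eBayes; for beads on average, 2 with the latter and 1 with a gene's probe sets averaged (in Gr1lo, Slfn9 then read 0.02). Slfn2 between subsets on average read 0.04 when arrays were centred on the median and 0.03 after cyclic loess, and Slfn8 for beads in Gr1lo read -0.0025 after centring. Leaving out genes below background removes Slfn3. Settings with fewer arrays or with a block have fewer residual degrees of freedom, and the block within each subset gives subset differences at replicate 1. Apart from this, the cause of these changes was not tested. Signal near or under background limits Slfn3, Slfn9 and, in Gr1lo cells with beads, Slfn5.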

Other observations

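Transfer RNA is the substrate of several Schlafen proteins. Of 14 measured genes that handle it, 3 rose and 3 fell in Gr1lo cells without beads, and 4 rose and 3 fell with beads, where 23.6% and 26.5% of all genes were called. The list's medians, -0.05 and -0.06, were close to those of all genes, -0.07 and -0.03. Elac1, a transfer RNA 3' processing enzyme, rose by 0.88 ± 0.09 without beads (limma adjusted p = 0.000295) and 1.26 ± 0.09 with beads. Rnh1, the ribonuclease inhibitor that binds angiogenin, fell by 0.82 ± 0.09 and 1.34 ± 0.09, and angiogenin itself, Ang, fell by 1.22 ± 0.15 without beads. With beads against without, 0 of the 14 genes were called in either subset.

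Of 9 measured Hedgehog and Gli genes, 2 were above background and Gli1 was not. Between subsets 1 of the 9 was called lower without beads and 1 with beads, against 13.6% and 14.6% of all genes. This is near the share of all genes and no result about the list. The called gene, the receptor Ptch1, fell by 0.80 ± 0.16 without beads (limma adjusted p = 0.00738) and by 1.09 ± 0.16 with beads. Among myeloid differentiation factors, Nr4a1 rose by 2.21 ± 0.10 and Klf4 by 1.39 ± 0.10 in Gr1lo cells without beads, opposite in direction to Slfn4, and Maf fell by 2.01 ± 0.29.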
